A study of Mus musculus with 48 samples.

Results

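DO11.10 T hybridoma cells were compared at the 2 highest doses of their antigen, 10000 and 1000 nM pOVA, to ask which genes still went up, and which turned back, once the antigen dose was close to saturating. The comparison took every hybridoma library labelled with either dose, which was 10 of the 26 hybridoma libraries and of the 48 libraries in the series. At 1000 nM there were 2 libraries of cells without PD-1 engagement and 2 with it, and at 10000 nM there were 3 of each. All of these cells were the same hybridoma line, listed under the strain BALB/c x AKR/J, and the RNA was taken from T cells that had been purified. The other hybridoma libraries held 0, 1, 10 and 100 nM pOVA with and without PD-1 engagement, and they appear below only as the earlier steps of the same dose series.

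DO11.10 is a mouse T cell hybridoma, a normal T cell fused to a thymoma cell, whose receptor is known to recognise an ovalbumin peptide presented on MHC class II. It is a dividing tumour hybrid, which limits it as a model of a resting T cell. How PD-1 was engaged, how long the cells were stimulated, which cells presented the peptide and whether the replicate numbers are separate cultures are not given in the sources used here. The p-values therefore measure only the spread between these libraries, which may be technical. The RNA was measured by CAGE, which counts the capped 5′ ends of transcripts, so a level in RPM (tag counts scaled to a common library total) is the use of a gene's start sites in the whole sample. In such bulk RNA, fewer cells of a type and less RNA per cell cannot be told apart.

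The T cell receptor signals through calcium and NFAT, through Ras, MAP kinases and AP-1, and through NF-kB. The first genes switched on encode transcription factors of the Egr, Nr4a, Fos and Jun families, followed by cytokines, chemokines and surface molecules, together with inhibitors that feed back on the same signals. PD-1 is an inhibitory receptor that dampens signalling close to the T cell receptor, and its ligand gene Cd274 and its own gene Pdcd1 are themselves induced by stimulation.

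The promoter sequences of 4 genes whose mean level was highest at 10000 nM are shown first, because the results below return to them. They encode the growth factor interleukin 2 (Il2), the chemokines Xcl1 and Ccl1, and sulfiredoxin (Srxn1), an enzyme that repairs oxidised peroxiredoxins. The windows hold the 250 bases before the RefSeq start (GRCm38.p6), 5′ to 3′ on the gene's own strand, and the genes were chosen after their values were seen. Of the 65 genes with values by library, 45 had a window in that table and 36 had a single one.
Il2, chr3:37125955-37126204, minus strand: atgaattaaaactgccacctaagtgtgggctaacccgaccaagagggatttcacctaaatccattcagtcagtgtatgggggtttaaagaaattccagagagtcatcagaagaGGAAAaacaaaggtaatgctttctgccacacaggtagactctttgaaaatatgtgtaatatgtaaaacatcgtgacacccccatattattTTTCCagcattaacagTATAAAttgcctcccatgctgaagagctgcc
Xcl1, chr1:164935523-164935772, minus strand: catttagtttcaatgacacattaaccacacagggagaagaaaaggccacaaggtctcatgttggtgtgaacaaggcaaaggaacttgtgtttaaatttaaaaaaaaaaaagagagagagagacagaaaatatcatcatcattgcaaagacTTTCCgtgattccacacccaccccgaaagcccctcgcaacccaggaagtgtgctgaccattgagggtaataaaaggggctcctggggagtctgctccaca
Ccl1, chr11:82179813-82180062, minus strand: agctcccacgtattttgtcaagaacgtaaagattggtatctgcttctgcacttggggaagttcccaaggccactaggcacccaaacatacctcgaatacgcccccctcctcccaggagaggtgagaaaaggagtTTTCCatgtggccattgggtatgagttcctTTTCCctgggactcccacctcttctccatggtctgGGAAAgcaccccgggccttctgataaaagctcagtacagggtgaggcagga
Srxn1, chr2:152105274-152105523, plus strand: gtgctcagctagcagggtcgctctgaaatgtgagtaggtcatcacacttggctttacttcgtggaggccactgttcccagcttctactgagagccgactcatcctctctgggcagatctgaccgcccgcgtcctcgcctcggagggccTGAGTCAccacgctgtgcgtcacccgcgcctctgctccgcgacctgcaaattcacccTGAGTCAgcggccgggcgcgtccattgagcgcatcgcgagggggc
Capitals mark every match, on either strand, to the letters TGAGTCA (the AP-1 site), GGAAA (the core of an NFAT site) or TATAAA (the TATA box), which do not overlap each other in these windows. The Il2 window held 2 GGAAA and 1 TATAAA, the Xcl1 window 1 GGAAA, the Ccl1 window 3 GGAAA, and the Srxn1 window 2 TGAGTCA, the nearer of them 39 to 45 bases before the start. Over all 32851 windows of the same length, 4.46% held TGAGTCA, 55.6% held GGAAA and 12.4% held TATAAA. A match describes these letters and no binding was measured.

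No gene passed the main test between 10000 and 1000 nM, but the number called depended on the model. The model fitted log2(RPM + 1) of 10008 genes over the 10 libraries, with PD-1 engagement as a covariate (limma, Benjamini-Hochberg). It called 0 genes higher and 0 lower at an adjusted p under 0.05 (0.0% of genes tested in each direction), and the smallest adjusted p was 0.667. At an unadjusted p under 0.05, 533 genes were higher (5.33%) and 179 lower (1.79%). The edgeR quasi-likelihood test on the recovered tag counts also called 0 in either direction, and DESeq2 on the same counts called 14 higher and 5 lower. With replicate number as a block, limma called 434 genes higher (4.34%) and 68 lower (0.679%), although the numbers pair the doses only in part. Engaged and unengaged libraries that share a dose and a number deviated together, and averaging each such pair (3 averages at 10000 nM against 2 at 1000 nM) gave 1 gene higher (Gm10288) and 2 lower (Gm6363 and Rpl9-ps4). All 3 of these have names of predicted genes or pseudogenes and were named after their values were seen.

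With all 10 libraries taken as independent, the 95% interval of the log2 difference lay within 2-fold either way for 9900 of the 10008 genes (98.9%). With a random effect for libraries of 1 dose and number it did so for 9793 (97.9%), and with each such pair averaged for 9876 (98.7%). The intervals and SEs below take the libraries as independent and are too narrow where pairs deviate together. Those of Cd69, Cd200r1, Rel, Itpr1, Fyn, Insig1, Pgam1, Hspa8, Trp53inp1, Psma2 and Bbc3 exclude 0 only on that assumption and included it in both paired fits. Other genes included 0 in only 1 of the paired fits. With the random effect these were Crtam, Nr4a3, Rgs16, Jun, Mki67, Ms4a1, H2-Ab1, Rpl11, Slfn9, Rpl9-ps4 and AC154909.1. With pairs averaged they were Dusp4, Zfp36l1, Nop16, Phgdh and Atp5c1. The median log2 difference over all genes was 0.036. In 212 genes (2.12%) every 10000 nM library was above every 1000 nM library of the same engagement state, and in 85 genes (0.849%) every one was below.

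Called genes were counted in the same way at the earlier steps of the dose series, which share libraries with their neighbours and are set side by side only. From 1 to 10 nM, 2 genes rose (0.0202% of genes tested), both of them Egr genes (Egr1 and Egr3), and 0 fell, and leaving out 1 library gave 0 to 2 risen. From 10 to 100 nM, 297 rose (2.98%) and 245 fell (2.46%). From 100 to 1000 nM, 64 rose (0.642%) and 36 fell (0.361%). Leaving out any 1 of the 4 unengaged libraries of 10 and 100 nM reduced the 10 to 100 nM counts to between 136 and 163 risen and between 72 and 119 fallen, and leaving out engaged 10 nM number 1 gave 135 fallen. Leaving out 1 library reduced the 100 to 1000 nM risen genes to between 26 and 41 for each of the 4 libraries of 100 nM and engaged 1000 nM number 2, and the fallen genes to between 7 and 19 for those and the unengaged 1000 nM libraries.

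**Figure D1:**
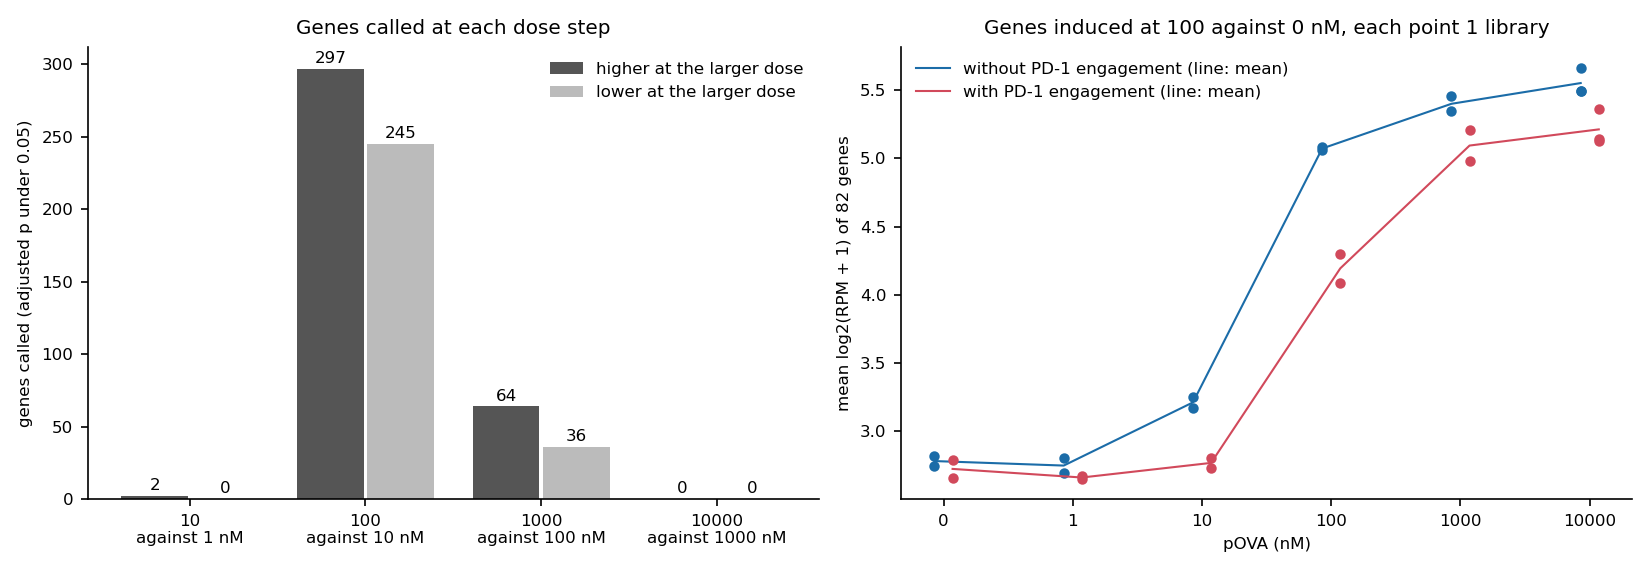
Left: genes called at each dose step (adjusted p under 0.05), with 297 and 245 at 100 against 10 nM and 0 and 0 at 10000 against 1000 nM. With replicate number as a block (not drawn), these counts were 644 and 630, and 434 and 68. Right: mean log2(RPM + 1) of the 82 genes induced at 100 against 0 nM in each hybridoma library (points) with group means (lines). The curve with PD-1 engagement lies lower at every dose, with the widest gap at 100 nM. Both curves rise less from 1000 to 10000 nM than from 100 to 1000 nM.

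The genes of the antigen response were taken from a contrast that shares no library with this comparison, 100 against 0 nM (8 libraries, engagement as a covariate). With an adjusted p under 0.05 and at least a 2-fold change, 82 genes were induced (0.814% of 10074) and 18 repressed (0.179%). Of the 82, at 10000 against 1000 nM, 0 were called, 19 were higher and 1 lower at an unadjusted p under 0.05 (5.33% and 1.79% of all genes). Their difference was positive in 61 (74.4%, beside 61.7% of all genes) and negative in 21, with a median of 0.14 on the log2 scale beside 0.036 over all genes. For 79 of the 82 the 95% interval lay within 2-fold, and for 78 with pairs averaged. Libraries did not overlap in either engagement state for 8 of the 82 in the higher direction and for 1 in the lower, beside 2.12% and 0.849% of all genes. The 18 repressed genes had a median of -0.0089, with 2 higher and 1 lower at an unadjusted p under 0.05. Both 0 nM libraries of number 2 stood apart by their B cell transcripts (below). Choosing the lists without those 2 gave 102 induced genes, 72 of them shared with the 82, with a median of 0.13 and again 0 called. The repressed list changed more, to 24 genes with only 3 shared with the 18. Its median was then -0.12, with 3 higher and 3 lower at an unadjusted p under 0.05.

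The level at 1000 nM was also expressed as a share of that at 10000 nM. Without engagement, the level at 1000 nM was a median 89.4% of that at 10000 nM over the 82 induced genes (quartiles 78.6% and 100.6%), and with engagement 92.9% (85.0% and 102.2%). At 100 nM the medians were 70.1% without and 47.9% with engagement. Over all genes with at least 1 RPM at 10000 nM, the level at 1000 nM was a median 95.8% without and 98.7% with engagement. In 50 of the 82 induced genes the highest mean of all 6 doses was at 10000 nM in both engagement states, and in 10 it was at 1000 nM in both. The highest mean was at 10000 nM for 68.3% of the induced genes without engagement and 70.7% with it. Over all genes the shares were 15.9% and 17.4%. That gap was partly set by choosing genes higher at 100 than at 0 nM. The highest mean was at 0 nM in 4457 and 5322 of the 10008 genes and in 0 of the induced genes. It was at 1000 nM for 20.7% and 26.8% of the induced genes, beside 10.9% and 9.79% of all genes.

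**Figure D2:**
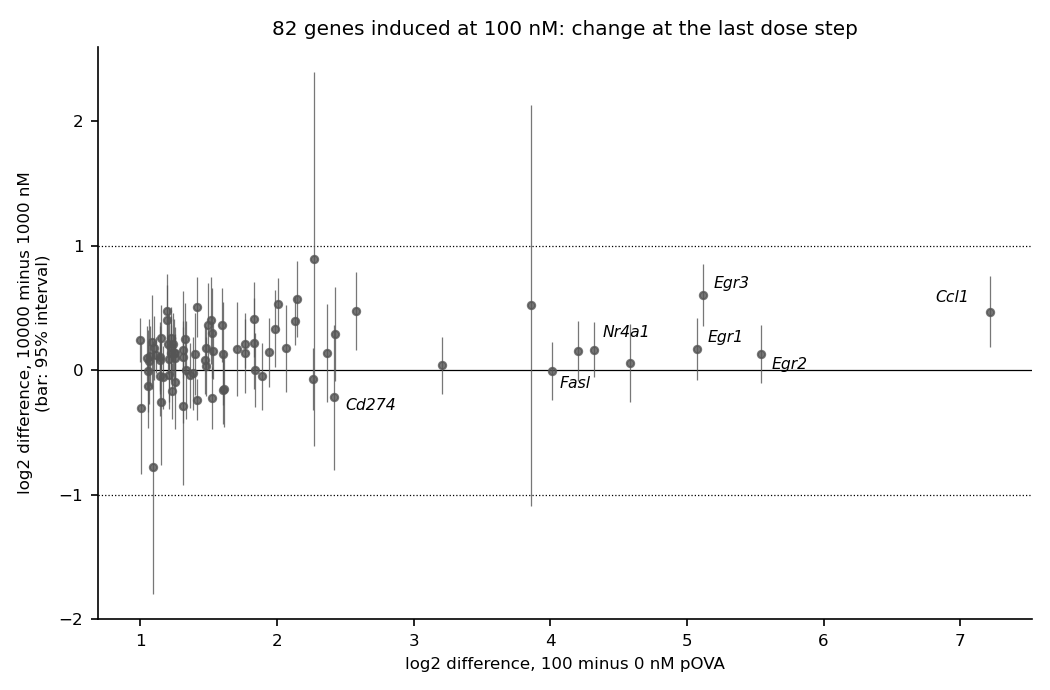
Log2 difference 10000 minus 1000 nM (vertical, with 95% interval) of the 82 induced genes against their log2 difference 100 minus 0 nM (horizontal); the dotted lines mark 2-fold. Egr3 and Ccl1 lie above 0 with intervals that exclude it, while the intervals of Egr1, Egr2, Nr4a1 and Fasl include 0.

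Among the early transcription factors, Egr3 was furthest from flat. Without engagement, Egr3 stood at 102.4 and 84.9 RPM at 1000 nM and at 132.9, 154.5 and 156.2 RPM at 10000 nM. With engagement it stood at 85.2 and 55.1 RPM and then at 100.5, 99.1 and 103.5 RPM. All 6 libraries at the higher dose were above those at the lower dose of the same engagement state, a log2 difference of 0.60 ± 0.11 (SE, n = 6 and 4 libraries, adjusted p = 0.667, limma). Egr3, a zinc finger factor known for restraining T cell activation, starts at chr14:70476719-70476722 on the plus strand (mm9, as deposited, with the counting origin not given in the sources used here). Omitting both 1000 nM libraries of number 1 made it pass (adjusted p = 0.0187, limma), and DESeq2 called it too (adjusted p = 0.00256). Its adjusted p over the other alternatives tried stayed above 0.05 except with replicate number as a block (0.0402, limma). That fit called 4.34% of all genes higher, although the numbers pair the doses only in part.

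Egr2, Egr1 and Nr4a1 had intervals that included 0. Egr2 without engagement stood at 274.3 and 273.6 RPM at 1000 nM and at 260.5, 325.3 and 254.4 RPM at 10000 nM, and the groups overlapped. The log2 difference of Egr2 was 0.13 (95% interval -0.10 to 0.36). Egr1, an immediate early member of the family, differed by 0.17 (-0.08 to 0.42) and Nr4a1, an orphan nuclear receptor widely used to report T cell receptor signalling, by 0.17 (-0.05 to 0.39). Leaving out both 1000 nM libraries of number 2 turned the signs of Egr1 (to -0.0041) and Nr4a1 (to -0.024). Whether Egr3 differed from these genes was not tested.

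Nr4a3 encodes another receptor of the Nr4a family. Without engagement it stood at 55.4 and 43.0 RPM at 1000 nM and at 74.5, 72.8 and 71.5 RPM at 10000 nM. With engagement it was at 31.5 and 20.2 RPM and then at 36.7, 27.4 and 27.3 RPM, where the groups overlapped. The log2 difference over both states was 0.41 (95% interval 0.10 to 0.71).

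Jun and Ier5 were chosen after their values were seen. Jun, a subunit of AP-1, was low throughout: 1.91 and 3.06 RPM at 1000 nM and 3.22, 2.54 and 2.83 RPM at 10000 nM without engagement, overlapping. With engagement it was 3.44 and 3.42 RPM and then 5.64, 5.68 and 7.31 RPM, all above. Ier5, an immediate early gene, differed by 0.42 (0.19 to 0.65), while Fos, the partner of Jun in AP-1, differed by -0.15 (-0.45 to 0.16). Myc, which drives growth of dividing cells, was at 79.5 to 101.1 RPM at 1000 nM and 72.3 to 111.2 RPM at 10000 nM, a difference of 0.025 (-0.22 to 0.27) whose sign turned under several alternatives. Rel, the NF-kB subunit c-Rel, differed by 0.24 (0.06 to 0.42). Over the list of early and receptor-induced transcription factors, 18 of the 22 tested genes were positive (61.7% of all genes were), 6 were higher and 0 lower at an unadjusted p under 0.05 (background 5.33% and 1.79%), and 0 were called. The list's median was 0.16, beside 0.89 from 10 to 100 nM and 0.62 from 100 to 1000 nM.

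**Figure D3:**
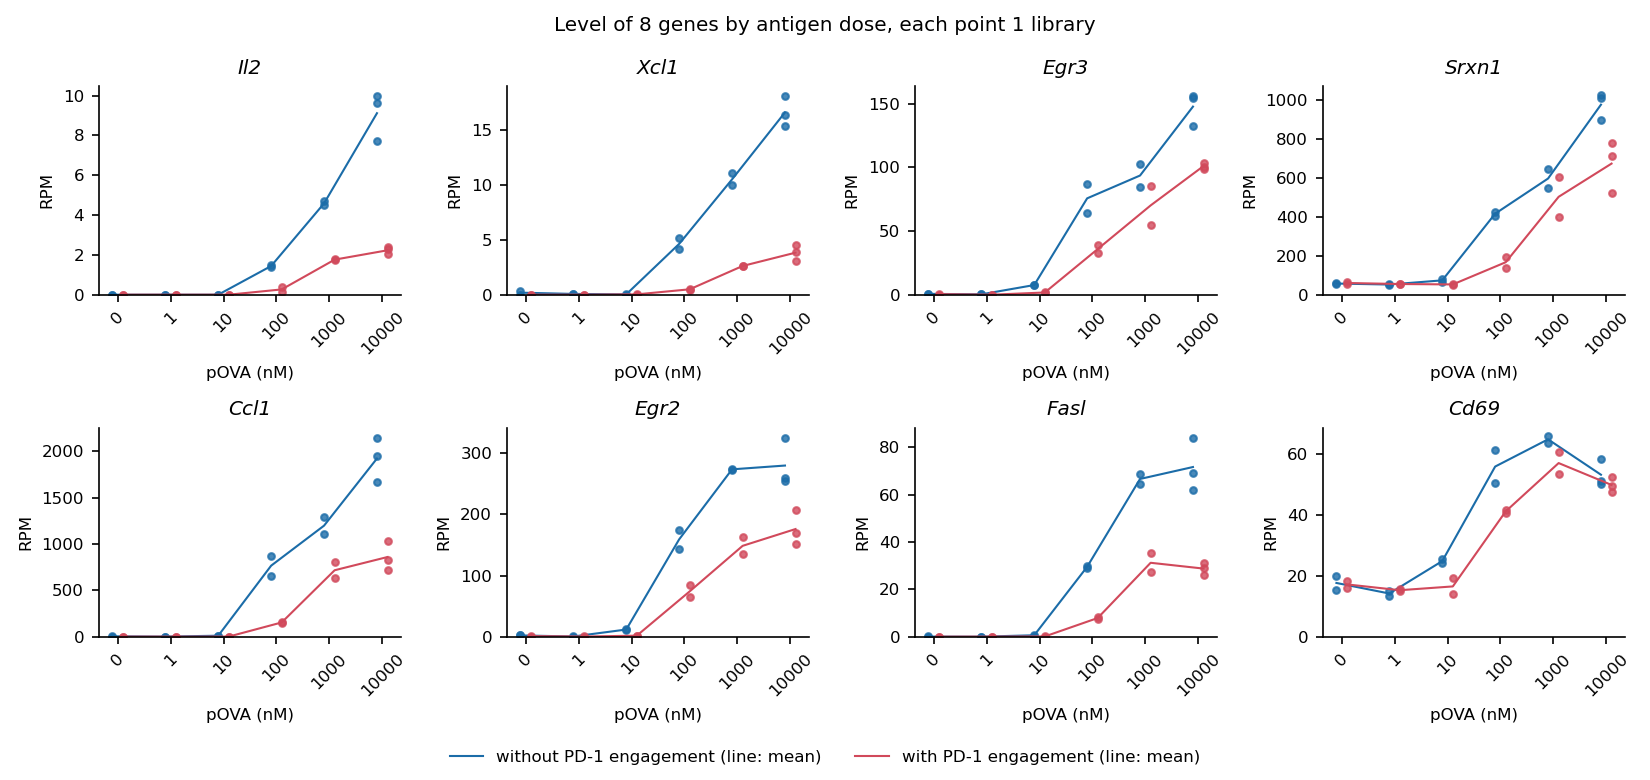
RPM (linear axis) of 8 genes against pOVA dose in every hybridoma library (points), without (blue) and with (red) PD-1 engagement, with lines through group means. Il2, Xcl1, Egr3, Srxn1 and Ccl1 are highest at 10000 nM, Egr2 and Fasl are near level from 1000 nM, and Cd69 is highest at 1000 nM.

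Of the secreted products, Il2, Xcl1 and Ccl1 stood higher in every unengaged library at 10000 nM than at 1000 nM, although none passed the test. Il2 was listed at 0 RPM in every library up to 10 nM. It was at 1.51 and 1.37 RPM at 100 nM without engagement and had risen by 1000 nM, both states together (log2 difference 1.16, adjusted p = 0.00433). At 1000 nM without engagement it stood at 4.69 and 4.48 RPM and at 10000 nM at 9.65, 9.98 and 7.71 RPM. With engagement the values were 1.72 and 1.80 RPM and then 2.27, 2.39 and 2.03 RPM. No library overlapped in either state, and the log2 difference was 0.85 without and 0.23 with engagement. The difference between those 2 values was -0.62 and did not pass the test (adjusted p = 1.0, limma). Over both states the log2 difference of Il2 was 0.54 (95% interval 0.24 to 0.84), adjusted p = 0.667. The Il2 cluster lies at chr3:37024876-37024878 on the minus strand (mm9).

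Xcl1, a chemokine that attracts cross-presenting dendritic cells, was likewise apart in both states. Without engagement it was at 11.02 and 9.94 RPM at 1000 nM and at 18.1, 15.3 and 16.3 RPM at 10000 nM. With engagement it was at 2.58 and 2.64 RPM and then at 3.89, 4.52 and 3.05 RPM. The log2 difference was 0.51 ± 0.11 (SE, n = 6 and 4). Xcl1 had risen from 100 to 1000 nM (1.16, adjusted p = 0.00433).

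Ccl1, a chemokine for CCR8, was the most abundant of these genes. It stood at 1291 and 1105 RPM at 1000 nM and at 1950, 2144 and 1673 RPM at 10000 nM without engagement, where no library overlapped. With engagement the values were 805.4 and 627.9 RPM and then 827.7, 1027 and 723.9 RPM, which overlapped. The log2 difference was 0.47 (95% interval 0.18 to 0.75), with 0.68 without and 0.26 with engagement. DESeq2 called Ccl1 (adjusted p = 0.0393) and Xcl1 (adjusted p = 0.0397); over the other alternatives tried neither passed except with replicate number as a block. Of the 4 chemokine genes tested, 3 were positive, 2 were higher at an unadjusted p under 0.05 and the median was 0.29. Over all genes 61.7% were positive and 5.33% higher, with a median of 0.036.

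Cytokine genes as a list lay on both sides. Of 12 tested, Il2 among them, 7 were positive and 5 negative, with 2 higher and 1 lower at an unadjusted p under 0.05 and a median of 0.067. Over all genes 61.7% were positive, 5.33% higher and 1.79% lower. The lower one, Il16, a chemoattractant precursor made by unstimulated T cells, went the other way along the dose series. It had fallen from 10 to 100 nM (-0.76, adjusted p = 0.00361). Without engagement Il16 stood at 8.42 and 6.13 RPM at 1000 nM and at 5.28, 5.08 and 5.27 RPM at 10000 nM. With engagement it stood at 12.5 and 8.57 RPM and then at 7.96, 6.90 and 6.42 RPM, with no overlap in either state. The log2 difference was -0.45 (95% interval -0.72 to -0.17).

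Srxn1 is the gene whose window above holds both TGAGTCA matches. Without engagement Srxn1 stood at 643.1 and 549.9 RPM at 1000 nM and at 1023, 1009 and 894.9 RPM at 10000 nM, with no overlap. With engagement it stood at 606.1 and 399.2 RPM and then at 781.5, 713.5 and 524.5 RPM, which overlapped. The log2 difference was 0.57 (95% interval 0.27 to 0.88), and DESeq2 called it (adjusted p = 0.00272). From 10 to 100 nM it had risen by 2.06 (adjusted p = 7.28e-05).

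Sult2b1, a sulfotransferase of cholesterol and other hydroxysteroids, had the smallest unadjusted p of any gene. It was at 8.07 and 8.97 RPM at 1000 nM and at 14.3, 13.8 and 11.04 RPM at 10000 nM without engagement, and at 4.52 and 4.32 RPM and then 6.57, 7.10 and 6.36 RPM with it. The groups were apart in both states, with a log2 difference of 0.53 ± 0.10 (SE, n = 6 and 4; adjusted p = 0.667), and DESeq2 called it (adjusted p = 0.0299).

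Eea1, an early endosome tether, stood at 140.0 and 127.1 RPM and then at 181.4, 176.8 and 165.5 RPM without engagement. With engagement Eea1 was at 86.7 and 69.6 RPM and then at 110.0, 104.2 and 97.3 RPM. Its log2 difference was 0.40 ± 0.08 (SE), again with no overlap, and it had risen from 100 to 1000 nM (1.07, adjusted p = 0.00763). DESeq2 called Eea1 with its smallest adjusted p of all genes (1.96e-05). Sema6a, a transmembrane semaphorin, was in engaged cells at 3.23 and 2.70 RPM at 1000 nM against 7.03, 6.14 and 6.99 RPM at 10000 nM. Without engagement Sema6a was at 12.9 and 11.9 RPM and then at 15.5, 16.9 and 15.5 RPM. The log2 difference of Sema6a was 0.96 with and 0.34 without engagement, and the difference between them did not pass the test. DESeq2 called Sema6a over both states (adjusted p = 0.0396).

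Rgs16, a brake on G protein signalling, and Crtam, an adhesion receptor of activated T cells, were at 0 to 0.13 RPM at 10 nM and differed by 0.49 (0.14 to 0.85) and 0.48 (0.17 to 0.79) on the log2 scale. Crtam without engagement stood at 16.6 and 16.1 RPM and then at 29.5, 33.1 and 24.9 RPM. With engagement it stood at 11.2 and 8.51 RPM and then at 10.4, 12.4 and 10.4 RPM. The groups were apart without engagement and overlapped with it, and the test of that difference did not pass. Among feedback regulators as a list, 17 of 25 tested genes were positive (68%, near the 61.7% of all genes), 4 were higher and 0 lower at an unadjusted p under 0.05 (5.33% and 1.79% of all genes), and the median was 0.12. Dusp4, a MAP kinase phosphatase, differed by 0.40 (0.05 to 0.75).

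Cd69, an early activation marker, stood lower at the top dose. It had risen from 10 to 100 nM (1.21, adjusted p = 0.000105). Without engagement Cd69 stood at 66.0 and 63.8 RPM at 1000 nM and at 58.5, 51.0 and 50.2 RPM at 10000 nM. With engagement it stood at 53.6 and 60.6 RPM and then at 49.6, 47.7 and 52.4 RPM. Every 10000 nM library was below every 1000 nM library of the same state, a log2 difference of -0.24 (95% interval -0.40 to -0.07, or -0.49 to 0.017 with the random effect), adjusted p = 0.667. Cd69 was the 1 induced gene of the 82 whose groups were apart in the lower direction. Its start cluster lies at chr6:129225387-129225390 on the minus strand (mm9).

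The 10 induced genes whose highest mean was at 1000 nM in both engagement states were Cd69, Cd274, Cd40lg, Fos, Ier2, Tnfsf11, Tmod1, Zfp36, Gm11998 and U12. Apart from Cd69, none of them had groups that stayed apart. Cd274, which encodes the PD-1 ligand PD-L1, was at 85.7 and 104.8 RPM at 1000 nM and at 91.1, 44.4 and 111.2 RPM at 10000 nM without engagement. With engagement it was at 70.7 and 76.9 RPM and then at 81.0, 39.6 and 94.4 RPM. The low values were those of number 2 in both states, and without these 2 libraries the log2 difference of -0.22 turned to 0.16. Zfp36, an RNA-decay factor that shortens cytokine messages, had the same pattern: 4.90 and 3.81 RPM in number 2 against 8.86 to 13.1 RPM in the other four 10000 nM libraries. Without number 2 its difference of -0.29 turned to 0.11.

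Of other surface molecules, Fasl, Tnfrsf9 and Pdcd1 had intervals that included 0. Fasl, the ligand that triggers Fas-mediated death, stood at 68.6 and 64.7 RPM at 1000 nM and at 83.9, 62.1 and 69.0 RPM at 10000 nM without engagement. With engagement it stood at 35.2 and 27.3 RPM and then at 31.3, 26.03 and 29.0 RPM. The groups overlapped, and the log2 difference was -0.0069 (95% interval -0.24 to 0.23), with a sign that turned under several alternatives. Tnfrsf9, the costimulatory receptor 4-1BB, differed by 0.15 (-0.09 to 0.40). Pdcd1 was at 155.3 to 192.4 RPM at 1000 nM and at 147.8 to 232.2 RPM at 10000 nM, a difference of 0.18 (-0.07 to 0.44). With replicate number as a block it was 0.31 and was called (adjusted p = 0.0484, limma). Of the 16 activation surface molecules tested, 8 were positive and 8 negative (61.7% of all genes were positive), and their median was 0.039. Of the 8 inhibitory receptors and ligands tested, 5 were positive and 3 negative, with a median of 0.091. The lower of these at an unadjusted p under 0.05, Cd200r1, the receptor for CD200, differed by -0.30 (-0.55 to -0.044) and had fallen from 100 to 1000 nM (-1.15, adjusted p = 0.00763).

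Leaving out predicted gene models, the 5 genes with the smallest unadjusted p in the lower direction were Cytip, Fam40b, Cct6a, B2m and P2ry14. None of these 5 passed. Cytip, an adaptor that releases integrin adhesion, stood at 23.6 and 23.0 RPM and then at 17.8, 18.0 and 18.2 RPM without engagement. With engagement Cytip stood at 28.1 and 27.0 RPM and then at 22.7, 21.2 and 19.0 RPM. The groups were apart in both states and the log2 difference was -0.37 ± 0.08 (SE). Fam40b, a subunit of the STRIPAK phosphatase complex also named Strip2, differed by -0.46 (-0.69 to -0.23). Its level had fallen from 10 to 100 nM (-0.64, adjusted p = 0.0103). Cct6a, a subunit of the CCT chaperonin, differed by -0.26 (-0.39 to -0.12), and P2ry14, a receptor for UDP-sugars, by -0.41 (-0.64 to -0.18). B2m, the light chain of MHC class I, was at 155.5 to 196.3 RPM at 1000 nM and 130.5 to 161.4 RPM at 10000 nM, a difference of -0.33 (-0.50 to -0.15), and its engaged groups overlapped. DESeq2 called Cytip (adjusted p = 0.00308) and none of the other four.

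The gene lists held 0 called members in either direction. The list of replication-dependent histones had the lowest median. Of 61 genes tested, 54 were negative and 7 positive, while 61.7% of all genes were positive. At an unadjusted p under 0.05, 15 were lower and 0 higher (background 1.79% and 5.33%), and the median was -0.165. Hist1h2bm, which encodes an H2B histone, stood at 384.9 to 509.2 RPM at 1000 nM and at 319.9 to 387.5 RPM at 10000 nM, a log2 difference of -0.32 (-0.51 to -0.12). Histone copies are nearly identical and tags between them can be split. Hist1h2br was at 3.04 to 5.23 RPM in 8 of the 10 libraries and at 4657 and 6267 RPM in the others. Hist1h4k was between 10.1 and 16.4 RPM in 8 and at 1798 and 254.3 RPM in the others. The cause of these jumps was not tested. Leaving out the 4 histone genes whose libraries spanned 4-fold or more, 52 of 57 were negative, with a median of -0.165. The genes of the cell cycle and DNA replication, by contrast, divided into 15 positive and 17 negative of 32, with a median of -0.017. Mki67, a marker of cycling cells, was the member with the smallest p and differed by 0.48 (0.037 to 0.92).

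Of the 28 ribosome biogenesis genes 24 were positive (85.7%, beside 61.7% of all genes), 4 were higher and 0 lower at an unadjusted p under 0.05 (5.33% and 1.79% of all genes), and the median was 0.12. Nop16, a nucleolar assembly factor of the large subunit, differed by 0.33 (0.10 to 0.55). The cytosolic ribosomal proteins themselves divided into 29 positive and 35 negative with a median of -0.020, Rpl11 differing by 0.29 (0.08 to 0.51). Cholesterol and fatty acid synthesis genes were positive in 21 of 25 with a median of 0.081, although Insig1, the sterol-sensing retention protein of that pathway, had the smallest p and a difference of -0.34 (-0.68 to -0.0085). Of 16 interferon-stimulated genes 9 were positive with a median of 0.037. Isg15, a ubiquitin-like protein induced by interferon, stood at 22.4 and 21.9 RPM and then at 36.3, 57.0 and 40.1 RPM without engagement. With engagement Isg15 stood at 22.4 and 19.3 RPM and then at 25.6, 33.0 and 22.9 RPM, again with no overlap, and the log2 difference was 0.65 (0.30 to 1.00). DESeq2 called Isg15 (adjusted p = 0.0327).

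The remaining lists had medians between -0.027 and 0.15. NF-kB pathway genes had a median of 0.035, near the 0.036 of all genes, with 4 of 21 higher at an unadjusted p under 0.05 (5.33% of all genes). Calcium and NFAT genes had a median of 0.029, and Itpr1, a calcium release channel, differed by 0.38 (0.035 to 0.72). Genes of T cell identity had a median of 0.015, and Fyn, a kinase of the receptor complex, differed by 0.34 (0.07 to 0.62). Resting T cell genes had a median of -0.027, and Rcsd1 differed by -0.46 (-0.80 to -0.12). Effector transcription factors had a median of 0.12: Irf8 differed by 0.46 (0.22 to 0.70) and Id3, an inhibitor of E proteins, by 0.50 (0.21 to 0.80). Irf8 and B cell markers were both high in the 0 nM libraries of number 2, where Irf8 stood at 147.9 and 152.4 RPM, and with B cell markers as a covariate the difference of Irf8 was 0.29.

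Apoptosis and growth arrest genes had a median of 0.071. Trp53inp1, a p53-induced autophagy and death gene, differed by -0.25 (-0.43 to -0.06) and Bbc3, which encodes the death activator PUMA, by -0.49 (-0.96 to -0.0091). RNA decay regulators had a median of 0.029, with Zfp36l1 at 0.36 (0.016 to 0.70). Glycolysis genes had a median of 0.067, with Pgam1 at 0.44 (0.014 to 0.86). Genes of amino acid supply and ER stress had a median of 0.012, with Phgdh, the first enzyme of serine synthesis, at -0.22 (-0.37 to -0.08). Heat shock genes had a median of 0.075, with Hspa8 at 0.28 (0.06 to 0.50). Mitochondrial ribosomal proteins had a median of 0.034 (Mrpl21 at 0.37), proteasome subunits 0.048 (Psma2 at 0.19), the nuclear-encoded respiratory chain 0.015 (Atp5c1 at -0.23) and the 2 small nucleolar RNA host genes 0.15 (Snhg5 at 0.26).

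**Figure D4:**
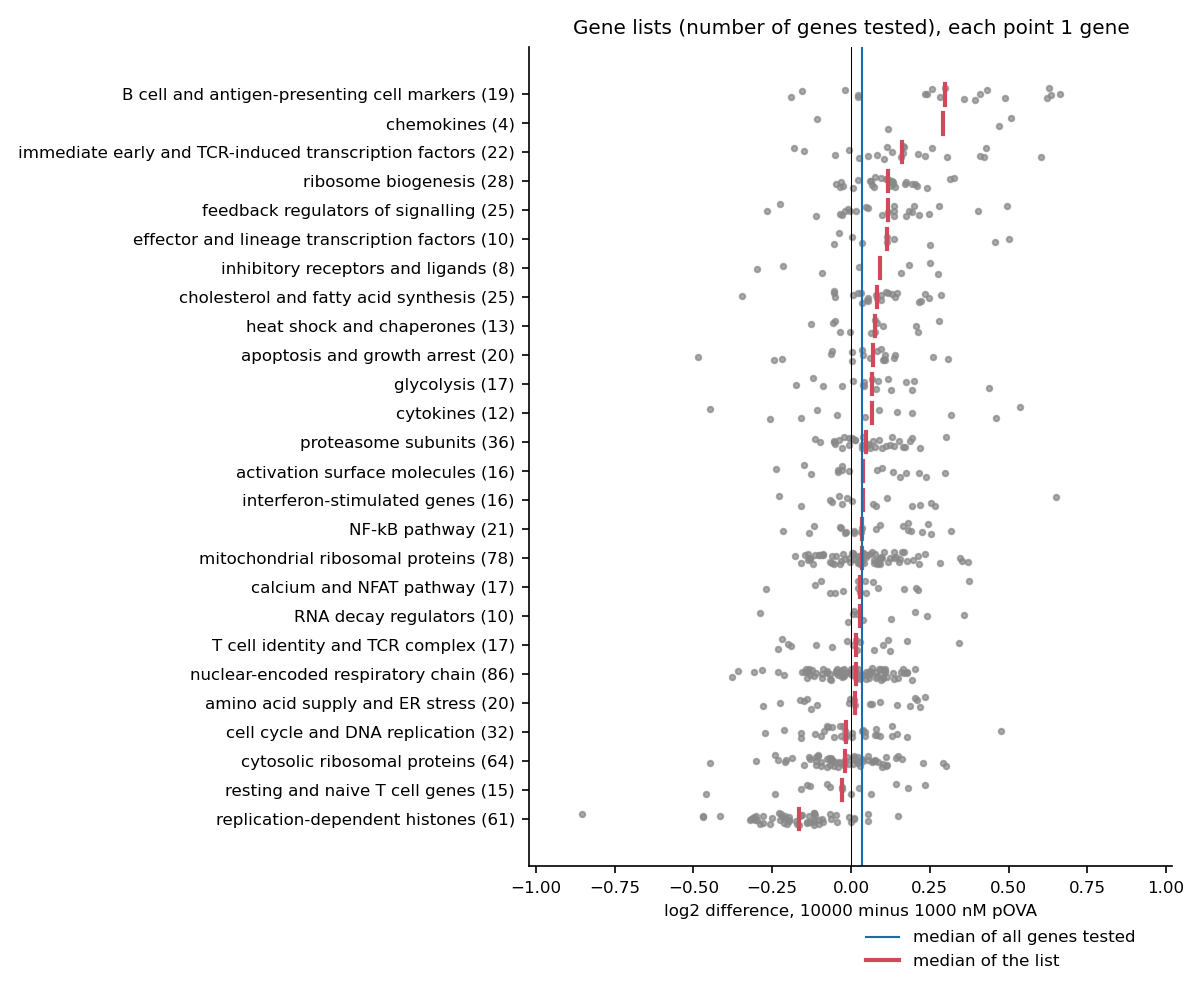
Log2 difference 10000 minus 1000 nM of the genes in 26 lists (grey points, 1 gene each), with the median of each list (red) and of all genes tested (blue); 3 genes lie outside the drawn range. B cell and antigen-presenting cell markers have the highest median and replication-dependent histones the lowest.

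Transcripts of B cells and antigen-presenting cells had the highest median of any list, although the RNA came from purified T cells. Of the 25 listed, 19 were tested: 16 were positive, 5 higher at an unadjusted p under 0.05, and the median was 0.30. The shares over all genes were 61.7% positive and 5.33% higher, with a median of 0.036. H2-Ab1, a chain of MHC class II, differed by 0.66 (95% interval 0.16 to 1.17) and Ms4a1, which encodes CD20, by 0.63 (0.19 to 1.07). Of the 12 fixed B cell markers 11 were in the table, none of them at 0 in any of the 10 libraries, and they summed to between 84.0 and 163.9 RPM at 1000 nM and between 141.6 and 277.3 RPM at 10000 nM. The T cell markers (7 of 8 in the table) summed to between 1199 and 1611 RPM and between 1327 and 1602 RPM. Of the myeloid markers only Cst3 was in the table (log2 difference 0.069) and of the cytotoxic markers only Gzma (0.19). With the B cell markers as a covariate the test again called 0 genes. H2-Ab1 then differed by 0.24 and Ms4a1 by 0.32, but both are themselves part of the covariate, so smaller values were built in. Outside the covariate, Rcsd1 differed by -0.24, Bbc3 by -0.27, Rpl11 by 0.14 and Snhg5 by 0.042. Among the induced genes highest at 1000 nM, Cd274 moved to -0.10, Fos to -0.038 and Zfp36 to -0.059. Zfp36l1 rose to 0.55. Il2 (0.52), Egr3 (0.63), Ccl1 (0.48), Srxn1 (0.69) and Cd69 (-0.23) stayed within 1.5 times of their values without the covariate. The 0 nM libraries of number 2 stood further out, at 1155 RPM without and 924.5 RPM with engagement.

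Without engagement the test called 0 genes higher and 1 lower (0.0% and 0.00999%), and with engagement 0 higher and 1 lower (0.0% and 0.00999%). The first was AC154909.1, at 5.21 and 18.6 RPM in the unengaged 1000 nM libraries and at 0 in the other 8. The second was Rpl9-ps4, a pseudogene of a ribosomal protein, at 238.6 and 58.9 RPM in the engaged 1000 nM libraries and under 1 RPM in the other 8. At an unadjusted p under 0.05, 415 genes were higher (4.15%) and 120 lower (1.2%) without engagement, and 87 higher (0.869%) and 39 lower (0.39%) with it. The call without engagement was lost when any 10000 nM unengaged library or engaged 10000 nM number 2 was left out, and there were 2 without unengaged 1000 nM number 1. With engagement there were 2 higher and 2 lower without engaged 1000 nM number 1, and 1 higher without engaged 10000 nM number 1 or number 2.

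The change with engagement minus the change without was tested directly, and 0 genes were higher and 1 lower (0.0% and 0.00999%), again Rpl9-ps4 (adjusted p = 0.00645). With the libraries of 1 dose and number taken as a pair, 0 were called. Leaving out unengaged 1000 nM number 1 gave 2 higher genes, leaving out unengaged 1000 nM number 2 gave 1, and leaving out engaged 1000 nM number 1 gave 1 higher and 2 lower. At an unadjusted p under 0.05, 28 genes had a larger value (0.28%) and 54 a smaller one (0.54%). The differences of Il2 (-0.62), Crtam (-0.63), Ccl1 (-0.42) and Sema6a (0.62) did not pass. AC154909.1 came next in the order of this test, with a difference of 3.46 (adjusted p = 0.22), and then Calu, a calcium-binding protein of the secretory pathway. Calu was at 101.6 and 102.8 RPM and then at 72.3, 79.5 and 70.1 RPM without engagement. With engagement Calu was at 82.3 and 72.7 RPM and then at 95.2, 103.8 and 93.5 RPM, so the groups were apart in opposite directions. DESeq2 called the difference of Calu (adjusted p = 0.000879), and limma gave it 0.989. Slfn9 without engagement was at 6.77 and 6.05 RPM and then at 13.0, 11.12 and 12.6 RPM, and with engagement at 9.97 and 11.2 RPM and then at 11.4, 10.7 and 10.9 RPM. Camk1d, a calmodulin-dependent kinase, differed by 0.39 without and -0.23 with engagement.

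Start-site clusters without a gene symbol were tested apart from the genes. Of 4388 clusters 0 were higher and 0 lower (0.0% each), while 263 (5.99%) were higher and 108 (2.46%) lower at an unadjusted p under 0.05. Leaving out engaged 10000 nM number 2 gave 2 higher clusters and leaving out engaged 10000 nM number 3 gave 1.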

How the data were processed

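The authors deposited RPM (reads, here tags, per M) for 18025 CAGE start-site clusters in the 26 hybridoma libraries. BWA 0.7.12, HISAT2 2.0.5 and the build mm9 are named in the submitters' processing notes; clustering and filters are not given in the sources used here. At least 99.98% of low values were whole multiples of 1 tag (tolerance 0.1 tag), which gave totals of 11.5 to 16.7 M tags at 1000 nM and 7.79 to 19.7 M at 10000 nM; precision is counting error plus the spread between libraries. The highest library of every cluster held at least 3.01 RPM, so genes below that are not in the table. Clusters were summed by symbol (10098 genes); 4477 had no symbol, 356 had several and were left out of the genes, and 16 symbols read as dates. Every column was mapped to a sample. The primary CD4 T cell table was not used here.

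From the RPM, log2(RPM + 1) was fitted with limma 3.58.1 (trend, two-sided) in R 4.3.3 for genes at 1 RPM or more in at least 2 of the 10 libraries; fold changes are on that scale, which understates low genes. Called means an adjusted p under 0.05. A 95% interval uses the moderated spread. The code was tested on simulated data. As alternatives, edgeR 4.0.16 and DESeq2 1.42.0 used the recovered tag counts, and pseudocount, filter, scaling, covariates and libraries were varied. Libraries of the same dose and number, with and without engagement, deviated together (correlations 0.34 to 0.47 over genes), so the numbers pair these. The intervals from the paired fits, the paired fit of the engagement difference, the lists chosen without the 0 nM libraries of number 2, the block for clusters without a symbol and the alternatives for the dose steps were added after seeing the data. Genes and gene lists were chosen with earlier results of these data known. The rule named called genes with the largest change, or, with fewer than 5 called in a direction, the 5 with the smallest p there, leaving out predicted gene models; the member of each list with the smallest p; Il2, Egr2, Nr4a1, Myc, Cd69, Pdcd1, Cd274 and Ccl1 (Ifng and Klf2 were not among the genes tested); and the 5 with the smallest p for the engagement difference. Srxn1, Jun, Nr4a3, Ier5, Crtam, Fasl, Tnfrsf9, Egr1, Il16, Bbc3, H2-Ab1, Id3, Dusp4, Fos, Zfp36, Hist1h2br and Hist1h4k were named after their values were seen. Summaries were made in Python 3.11.15.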

Additional observations from a re-analysis of the deposited data

Results flagged for a closer look

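Rpl9-ps4, a ribosomal protein pseudogene, was the 1 gene whose change from 1000 to 10000 nM differed between engaged and unengaged cells by the test of that difference. The engaged change minus the unengaged change was -6.63 on the log2 scale (limma, adjusted p = 0.00645). The value came from the engaged 1000 nM libraries, at 238.6 and 58.9 RPM, while the other 8 libraries were under 1 RPM. The same gene switched between levels inside other groups: it stood at 8.35 and 119.3 RPM in the unengaged 1 nM libraries, at 0.44 and 162.7 RPM in the unengaged 10 nM libraries, and at 0.78 and 140.8 RPM in the engaged 100 nM libraries. Pseudogenes share sequence with their parent gene, and the labels do not say how tags matching several places were assigned. Groups held 2 or 3 libraries, too few to look for a single outlying library within a group.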

How the results depend on the processing

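At 7.79 to 19.7 M tags, genes of a few RPM such as Il2 and Jun rest on few tags. The 0 higher and 0 lower genes stayed 0 without any 1 library and under every alternative not given next. Replicate number pairs the doses only in part. Same-numbered 1000 and 10000 nM libraries correlated at 0.34 and 0.47 for number 1 and at 0.06 and 0.04 for number 2. Number 2 at 1000 nM correlated at 0.27 and 0.46 with number 3 at 10000 nM. With the replicate block the counts were 434 higher and 68 lower for both states and 418 and 56 without engagement. They were 29 and 17 for list members, 15 and 2 for induced genes, and 4 and 2 for clusters without a symbol. The step from 1 to 10 nM gave 2 lower, and that from 10 to 100 nM gave 644 and 630. With pairs averaged the counts were 1 and 2. Without both 1000 nM libraries of number 1 they were 1 and 1 (1 list member and 1 induced gene higher), and without both of number 2, 0 and 1 (1 list member lower). The cause of the counts from DESeq2 was not tested: it gave 14 and 5 for both states, 14 and 5 without and 2 and 3 with engagement, 1 higher for the difference, 4 and 1 list members and 5 induced genes higher.

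The 1 lower gene without engagement became 0 with a pseudocount of 5, a mean of at least 5 RPM, all 26 libraries in 1 fit, or edgeR; that with engagement became 0 with all 26; and that for the difference became 0 with a pseudocount of 5, all 26, edgeR, or the replicate block of dose and number. Clusters without a symbol gave 2 higher with a pseudocount of 0.5. Leaving out 1 library at a time gave, higher and lower, 0 to 0 and 0 to 0 for both states and for list members and induced genes, 0 to 0 and 0 to 2 without engagement, 0 to 2 and 1 to 2 with it, 0 to 2 and 1 to 2 for the difference, 0 to 2 and 0 to 0 for clusters, 0 to 2 and 0 to 1 from 1 to 10 nM, 136 to 331 and 72 to 204 from 10 to 100 nM, and 26 to 77 and 7 to 51 from 100 to 1000 nM.

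Of 65 genes, 55 kept their direction in every alternative and 10 turned. Myc was -0.024 with quantile normalization, -0.019 with the replicate block, -0.0026 with edgeR, -0.0012 with DESeq2, and -0.091, -0.051 and -0.019 without both libraries of 1000 nM number 2, 10000 nM number 1 and 10000 nM number 3. Fasl was 0.00023 with the replicate block, 0.056 with B cell markers as a covariate, and 0.10, 0.075 and 0.00023 without both of 1000 nM number 1, 10000 nM number 2 and 10000 nM number 3. Cst3 was -0.025 with B cell markers as a covariate and -0.023 without both of 1000 nM number 1. Without both of 1000 nM number 2, Nr4a1 was -0.024, Egr1 -0.0041 and Hist1h4k 0.35, and without both of 10000 nM number 2, Cd274 was 0.16 and Zfp36 0.11. Without 1 library, Myc ranged from -0.044 to 0.085, Calu from -0.19 to 0.028, Camk1d from -0.023 to 0.18, Fasl from -0.070 to 0.084 and Hist1h4k from -2.19 to 0.56.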
